A study of Mus musculus with 4 samples.

Results

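The genes described here belong to the response driven by the transcription factor ATF4 and to the unfolded protein response of the endoplasmic reticulum. They were a list of 42 named genes. A gene was kept where a probe matched its symbol and rose well above background on each array of either cell population. This left 41 of the 42 genes, among 11954 genes kept in all, and no probe matched *Pycr1*, an enzyme of proline synthesis. All 41 were well above background on each of the 4 arrays, so none of them entered through a single population.

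The arrays came from B16-F10, a metastatic mouse melanoma line. The cells were stained for the Met receptor, sorted by flow cytometry into a Met-low and a Met-high population, and the populations were grown apart for 3 days in serum-containing medium before total RNA was taken. Each population was represented by 2 independently prepared samples, and each sample was labelled with Cy3 and hybridised to a one-colour Agilent mouse array. No agent was added to either population to provoke stress, and both were sorted from 1 cell line. Whether Met-low and Met-high samples shared a parental culture is not stated. The sort selected on Met protein at the surface on the day of sorting only.

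When unfolded proteins build up in the endoplasmic reticulum, the kinase PERK, the kinase and nuclease IRE1 and the transcription factor ATF6 are switched on in its membrane. PERK, and GCN2 when amino acids are short, phosphorylate the initiation factor eIF2, which slows protein synthesis in general while the ATF4 message is translated more. ATF4 raises genes that make and import amino acids, whereas ATF6 and the spliced form of XBP1 raise chaperones, folding enzymes and the machinery that removes misfolded proteins. Much of this control works through translation, phosphorylation, cleavage and splicing, which an array of total mRNA does not see.

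The chaperone side of this response is known for a promoter element, the letters CCAAT and CCACG with 9 bases between them, which was searched on both strands from 250 bases before to 50 bases after each RefSeq gene start of the mouse assembly GRCm38.p6. A window was held for 38 of the 42 genes, the others being *Slc7a5*, *Slc1a5*, *Atf6* and *Manf*. The element was found for 7 of the 38 genes (18.4%), against 37 of 27025 genes (0.137%) with a window of the same length. These fragments are shown because the element occurs in genes of chaperones and folding enzymes whose values are given below. They read 5′ to 3′ along the strand of the gene, with the element in capitals and 12 bases on each side in lower case, and the *Calr*, *Creld2* and second *Hsp90b1* elements lie on the opposite strand.
Hspa5, 65 bases before the start, chr2:34772013-34772055, plus strand: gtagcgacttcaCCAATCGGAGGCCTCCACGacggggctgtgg
Hsp90b1, 212 bases before the start, chr10:86705626-86705668, minus strand: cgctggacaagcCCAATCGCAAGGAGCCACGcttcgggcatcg
Hsp90b1, 107 bases before the start, chr10:86705521-86705563, minus strand: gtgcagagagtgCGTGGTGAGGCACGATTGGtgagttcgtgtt
Dnajc3, 105 bases before the start, chr14:118937815-118937857, plus strand: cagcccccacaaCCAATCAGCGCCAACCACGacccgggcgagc
Pdia6, 98 bases before the start, chr12:17266479-17266521, plus strand: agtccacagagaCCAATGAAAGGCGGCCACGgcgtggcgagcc
Canx, 145 bases before the start, chr11:50325788-50325830, minus strand: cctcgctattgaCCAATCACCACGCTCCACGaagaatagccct
Creld2, 126 bases before the start, chr15:88819508-88819550, plus strand: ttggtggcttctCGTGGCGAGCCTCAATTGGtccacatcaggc
Calr, 162 bases before the start, chr8:84847063-84847105, minus strand: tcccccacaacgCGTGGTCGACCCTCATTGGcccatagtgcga

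The related second element, ATTGG and CCACG with 1 base between them, was found only for *Herpud1* among the 38 genes, and for 12 of 27025 genes (0.0444%). The core of the C/EBP-ATF response element, searched as TGATGNAAN on both strands, is the kind of site that ATF4 binds with a C/EBP partner. It was found for 7 of the 38 genes (18.4%) and for 1215 of 27025 genes (4.50%). The 7 were *Chac1*, *Trib3*, *Asns*, *Nupr1*, *Herpud1*, *Slc1a4* and *Pycr1*. Of these fragments 3 are shown for genes whose values follow, with the core in capitals. The *Nupr1* and *Chac1* cores lie on the opposite strand. A match is a description of letters and says nothing on whether a factor was bound in these cells. The letters TGACGTGG, another element of this response, were in the window of 0 of the 38 genes and of 193 of 27025 genes (0.714%).
Nupr1, 111 bases before the start, chr7:126625561-126625593, minus strand: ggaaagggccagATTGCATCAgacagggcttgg
Chac1, 194 bases before the start, chr2:119351036-119351068, plus strand: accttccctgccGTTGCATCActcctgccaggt
Asns, 23 bases before the start, chr6:7693212-7693244, minus strand: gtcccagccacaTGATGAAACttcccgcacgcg

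Values below are log2 signals with the array's own 75th percentile set to 0. A difference, called the log2 ratio, is the Met-high mean minus the Met-low mean, with limma's standard error (SE) and a p adjusted by Benjamini-Hochberg over all 11954 genes. A gene is said to pass at an adjusted p under 0.05. With 2 arrays in each population the number of arrays limits the precision of every value. The 95% interval of the log2 ratio reached between 0.38 and 0.81 to either side, with a median of 0.50. For 32 of the 41 genes this interval lay within a 2-fold difference in either direction, and for 35 of the 41 it included 0. The 4 arrays shared 1 slide, where Met-low samples took positions 1 and 2 and Met-high samples took 3 and 4, and an effect of position cannot be told apart from one of population. The arrays' 75th percentile ran from 858 to 1331 units of intensity, between 50.01% and 53.6% of spots were well above background, and 0 spots were saturated.

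The signal of *Met* itself, which encodes the receptor used for the sort, was -0.26 and -0.89 in Met-low against 1.03 and -0.43 in Met-high samples. Met-high replicate 2 therefore lay between the Met-low arrays, and the log2 ratio of 0.87 did not pass (SE 0.51, adjusted p = 0.33, limma). Where counts of genes higher and lower in mean changed without that array, both versions are given. Of 8 melanocyte lineage genes, all were measured and none passed in limma, with 1 higher at an unadjusted p under 0.05. Their summed linear signal, in units of the 75th percentile, was 1502 to 1858 on Met-low and 1640 to 1878 on Met-high arrays. Of 6 fibroblast genes only *Col1a2* was kept, at -0.97 and -0.73 on Met-low and -2.00 and -1.89 on Met-high arrays (adjusted p = 0.031, limma). The summed signal of the 6 was 0.628 and 0.685 on Met-low and 0.361 and 0.318 on Met-high arrays, and *Dcn*, *Lum* and *Pdgfra* were well above background on no array. Its part in the results below was not tested. Of the leukocyte genes, *Ptprc* and *Lyz2* were well above background on no array, and the same held for *Cdh5*, *Emcn* and *Tek* of endothelium and for *Cdh1* and *Krt1* of keratinocytes. Of these whole lists, 2 of 6, 2 of 5 and 1 of 5 genes were kept and none passed in limma, with 1 leukocyte gene lower at an unadjusted p under 0.05. The kept genes of leukocytes were *Itgam*, with a Met-low mean of 1.25 and a Met-high mean of 0.60, and *Cd3e*, with 0.54 and 0.91. Those of endothelium were *Kdr*, with 2.54 and 2.90, and *Pecam1*, with -4.41 and -4.34, and that of keratinocytes was *Krt14*, with -4.81 and -4.42. The part of these genes in the results was likewise not tested.

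Across the 41 genes, differences ran in both directions, and no test of the genes as a set was made. *Nupr1* and *Atf6* were lower in Met-high cells and passed, and 0 genes passed in the higher direction. The mean was higher in Met-high cells for 18 genes and lower for 23, with a median log2 ratio of -0.05 and a range from -1.98 to 0.75. The stress transcription factors, listed with regulators of the response and *Chac1*, were all lower in mean, 8 of 8, with a median of -0.44. Genes of amino acid synthesis and transport were mostly higher in mean, 10 of 13, against 59.5% of all genes. The chaperones were spread around 0. In bulk RNA such as this, fewer cells with a message and less of the message in each cell cannot be told apart.

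The 2 genes that passed as lower made up 4.88% of the 41, against a background of 3.80% of all genes tested. In the other direction the background was 1.93% and the count 0. At an unadjusted p under 0.05, 2 genes were higher and 4 were lower, where the background was 14.3% and 11.9%. Differences of more than 2-fold were found for 0 higher and 2 lower genes, against 2.43% and 5.30% of all genes. The arrays of the populations did not overlap for 9 genes that were higher (22.0%) and 12 that were lower (29.3%), against 35.7% and 22.6% of all genes. The share passing was thus near the background in both directions, and the share of non-overlapping genes was below it on the higher side and above it on the lower side.

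**Figure D1:**
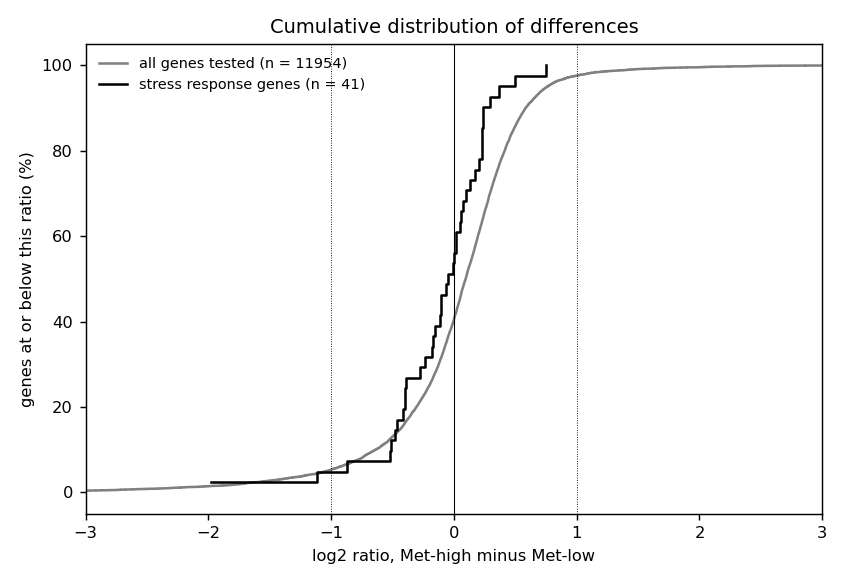
Cumulative share of genes, in percent, at or below each log2 ratio of Met-high minus Met-low, for the 41 stress response genes (black) and for all 11954 genes tested (grey). Dotted lines mark a 2-fold difference. The black line lies to the left of the grey line through the middle of the range, with medians of -0.05 and 0.10, and ends at 0.75 on the right.

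The median log2 ratio of all genes was itself 0.10, with 59.5% of genes higher in mean in Met-high cells, and 28 of the 41 stress genes lay below that median. A direction near 0 therefore depends on the scaling. With that percentile computed from detected probes only, the median of all genes moved to -0.05, a shift of more than 0.1, and the stress genes split into 11 higher and 30 lower with a median of -0.19. Relative to the median of all genes, the median of the stress genes was -0.15 under both scalings. That was fixed in advance, since these scalings differ only by a constant for each array. The same value was -0.22 under quantile normalization and 0.043 without the filter on dim probes. It ran from -0.27 to -0.033 with an array left out. Leaving out Met-high replicate 2 gave 21 higher and 20 lower genes with a median of 0.0046, and *Nupr1* alone then passed.

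**Figure D2:**
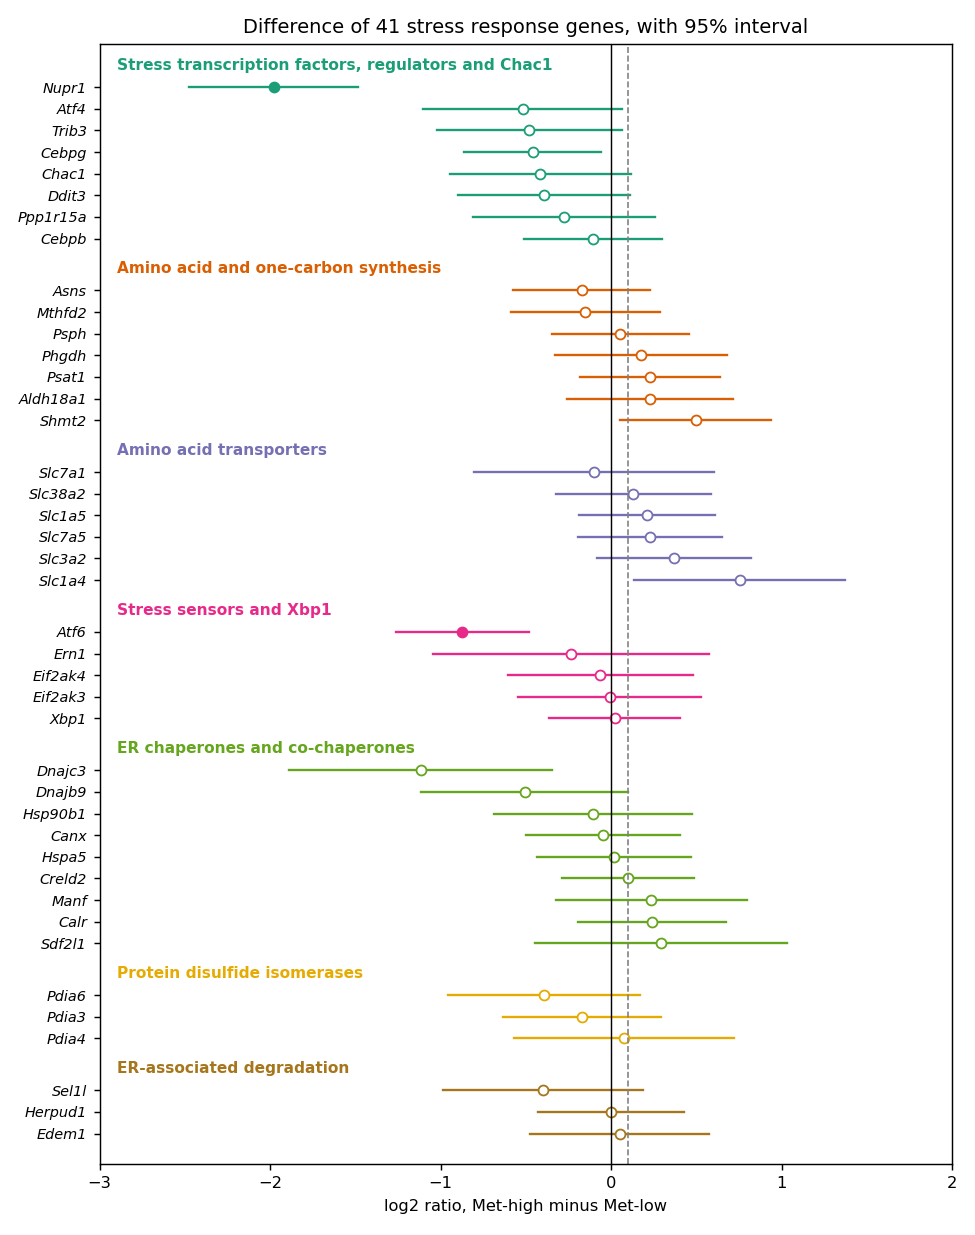
Log2 ratio of Met-high minus Met-low for each of 41 genes (points) with its 95% interval (lines), grouped and coloured by role. Filled points passed at an adjusted p under 0.05 and open points did not, the solid line marks 0 and the dashed line the median of all genes, 0.10. *Nupr1* and *Atf6* are the filled points, at -1.98 and -0.87.

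*Atf4*, its related transcription factors, regulators of the response and the target gene *Chac1* formed the group with the lowest median. *Atf4* (NM_009716), which encodes the central factor of the integrated stress response, had signals of 7.67 and 7.34 in Met-low against 7.22 and 6.76 in Met-high samples. Both Met-high arrays lay below both Met-low arrays, but by less than the fit could separate from the spread. The log2 ratio was -0.52 (SE 0.23, adjusted p = 0.229, limma), and its interval ran from -1.10 to 0.06. A second *Atf4* probe gave -0.62. Without Met-high replicate 2 the ratio was -0.29.

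*Nupr1* (NM_019738), a small chromatin-associated protein induced under amino acid shortage and other stress, had signals of 2.94 and 2.76 in Met-low against 0.69 and 1.05 in Met-high samples. The gap between the populations was several times the spread within either. The Met-low mean was 2.85 ± 0.13 (SD, n = 2) and the Met-high mean 0.87 ± 0.26 (SD, n = 2). This was 3.94-fold lower in Met-high cells. The log2 ratio was -1.98 with an interval from -2.47 to -1.48 (SE 0.20, adjusted p = 0.011, limma). The call held with any one array left out, the log2 ratio then lying between -2.16 and -1.80. It was lost without the filter on dim probes (adjusted p = 0.0873), under which 7 genes in all passed as lower.

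The remaining 6 genes of this group did not pass. *Ddit3*, which encodes the pro-apoptotic factor CHOP, had signals of 0.30 and 0.49 on Met-low and -0.18 and 0.19 on Met-high arrays, without overlap (log2 ratio -0.39, SE 0.20, adjusted p = 0.275). *Trib3*, a pseudokinase that binds ATF4 and CHOP, had signals of 3.81 and 3.48 on Met-low and 3.35 and 2.97 on Met-high arrays. Its log2 ratio was -0.48 (SE 0.22, adjusted p = 0.232, limma), with no overlap of the populations. *Cebpg*, a partner of ATF4, had a log2 ratio of -0.46 (adjusted p = 0.152, limma) and was 1 of the genes without overlap, as was *Chac1*, an enzyme that degrades glutathione, at -0.42 (adjusted p = 0.274, limma). *Ppp1r15a*, which encodes the GADD34 subunit that brings a phosphatase to eIF2, and *Cebpb*, another C/EBP factor, had log2 ratios of -0.28 and -0.11, and their arrays overlapped. In this group, then, 6 of 8 genes had both Met-high arrays below both Met-low arrays, and 0 had the reverse. Of all genes, 22.6% were without overlap on the lower side and 35.7% on the higher side. The genes were chosen with earlier results of these data known, so these counts only describe the group. The count of 8 lower means of 8 was the same under all alternative scalings and with each array left out, where the median ran from -0.58 to -0.34.

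**Figure D3:**
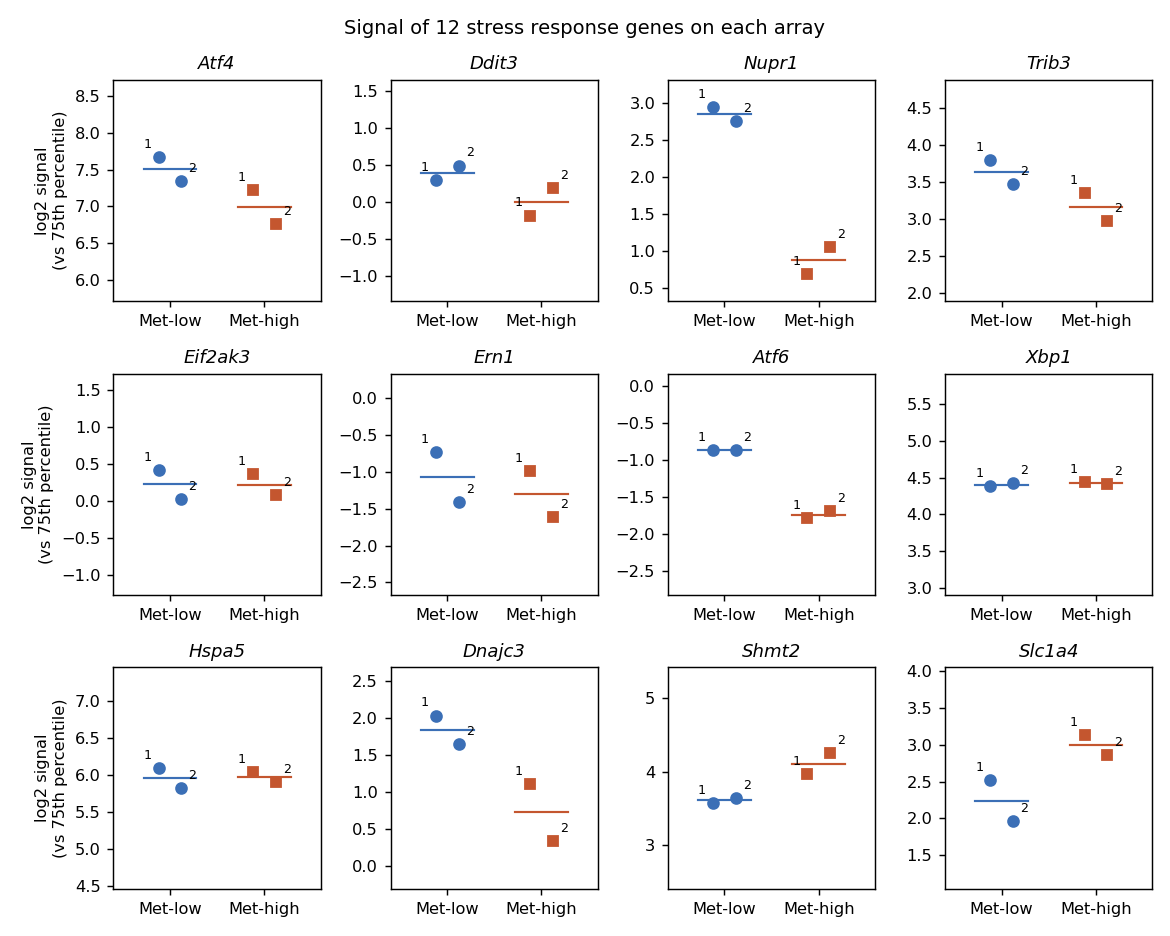
Signal of 12 of the genes on each array, in log2 units relative to the 75th percentile of the array, with replicate numbers beside the points and the mean of each population as a line. Each panel spans 3 log2 units. The populations are well apart for *Nupr1* and *Atf6*, separated by smaller gaps for *Atf4*, *Ddit3*, *Trib3*, *Dnajc3*, *Shmt2* and *Slc1a4*, and mixed or level for *Eif2ak3*, *Ern1*, *Xbp1* and *Hspa5*.

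The enzymes of amino acid and one-carbon synthesis, classical ATF4 targets, had a median log2 ratio of 0.17, with 5 of 7 means higher in Met-high cells, against 59.5% of all genes. The median was 0.03, with 4 of 7 higher, without Met-high replicate 2 and 0.02 without Met-low replicate 1. None passed in limma, and 1 was higher at an unadjusted p under 0.05. That gene was *Shmt2*, which makes one-carbon units from serine in mitochondria. Its signals were 3.58 and 3.65 on Met-low and 3.96 and 4.25 on Met-high arrays. Both Met-high arrays were above both Met-low arrays, and the log2 ratio was 0.50 (SE 0.18, adjusted p = 0.160, limma).

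*Asns*, asparagine synthetase and a standard readout of the ATF4 pathway, had signals of 6.36 and 6.22 on Met-low and 6.15 and 6.08 on Met-high arrays. The populations did not overlap but were close, with a log2 ratio of -0.17 (SE 0.16, adjusted p = 0.523, limma). Its interval, -0.58 to 0.23, lay within 2-fold in both directions. *Mthfd2*, which acts after *Shmt2* in the mitochondrial folate pathway, had signals of 4.17 and 3.95 on Met-low and 3.82 and 3.98 on Met-high arrays, with overlap and a log2 ratio of -0.15.

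The enzymes of serine synthesis, *Phgdh*, *Psat1* and *Psph*, had log2 ratios of 0.17, 0.23 and 0.05 (adjusted p from 0.421 to 0.858, limma). For *Psat1*, the aminotransferase of that pathway, the signals were 4.99 and 4.82 on Met-low and 5.07 and 5.19 on Met-high arrays, without overlap. *Aldh18a1*, the first enzyme of proline synthesis from glutamate, had signals of 0.37 and 0.41 on Met-low and 0.43 and 0.81 on Met-high arrays, again without overlap and with a log2 ratio of 0.23 (adjusted p = 0.489, limma). Without Met-high replicate 2 the ratios of *Phgdh* and *Aldh18a1* were 0.027 and 0.035. Second probes of *Phgdh*, *Psat1* and *Psph* gave 0.22, 0.12 and 0.07, the same sign as the first. With the scaling on detected probes 4 of 7 means of this group were higher and the median was 0.03.

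Amino acid transporters had a median of 0.22. The mean was higher for 5 of 6 and the arrays did not overlap for 4 of the 6, against 59.5% and 35.7% of all genes in this direction. None passed in limma and 1 was higher at an unadjusted p under 0.05. *Slc1a4*, a carrier of alanine, serine and cysteine, had signals of 2.52 and 1.96 on Met-low and 3.13 and 2.86 on Met-high arrays. It had the largest log2 ratio of the 41 genes on the higher side, 0.75, with an interval from 0.14 to 1.37 (SE 0.24, adjusted p = 0.138, limma). *Slc3a2*, the heavy chain shared by several transporters, had signals of 5.61 and 5.30 on Met-low and 5.82 and 5.83 on Met-high arrays, and a log2 ratio of 0.37 (SE 0.18, adjusted p = 0.258, limma).

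The Met-high arrays agreed closely with each other for *Slc3a2* and lay above both Met-low arrays. *Slc7a5*, which encodes LAT1, the light chain that pairs with *Slc3a2* to import leucine and other large amino acids, and *Slc1a5*, a glutamine carrier, had log2 ratios of 0.23 and 0.21, both without overlap (adjusted p = 0.428 and 0.443, limma). *Slc38a2*, another carrier of small neutral amino acids, gave 0.13 with overlap. *Slc7a1*, the carrier of arginine and lysine, had a lower mean, but not without Met-high replicate 2 or without Met-low replicate 1, where its log2 ratio was 0.19 and 0.14 and 6 of 6 transporters were higher. Its signals were 5.35 and 4.86 on Met-low and 5.30 and 4.71 on Met-high arrays, so that the arrays interleaved and the difference between replicates exceeded the difference between populations (log2 ratio -0.10, SE 0.28, adjusted p = 0.848, limma). With the scaling on detected probes 4 of 6 means were higher. The same count held without Met-high replicate 1, where the log2 ratios of *Slc7a1* and *Slc38a2* were -0.40 and -0.020.

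Among the sensors of stress, *Atf6* (NM_001081304) was the 1 gene that passed. It encodes the factor that is cleaved in the Golgi to enter the nucleus, and it had signals of -0.87 and -0.87 in Met-low against -1.79 and -1.69 in Met-high samples. The replicates lay close together in both populations, which did not overlap. The Met-low mean was -0.87 ± 0.00264 (SD, n = 2) and the Met-high mean -1.74 ± 0.071 (SD, n = 2), or 1.83-fold lower. The log2 ratio was -0.87 with an interval from -1.26 to -0.48 (SE 0.15, adjusted p = 0.041, limma). The call was near the threshold. It was lost with quantile normalization (adjusted p = 0.0589), without the filter on dim probes (0.191), and without any one array, at 0.123 and 0.113 without Met-low replicates 1 and 2 and 0.0945 and 0.0826 without Met-high replicates 1 and 2. The log2 ratio moved little, from -0.92 to -0.82 with an array left out.

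The other sensors had log2 ratios near 0 or intervals too wide to place them. *Eif2ak3*, which encodes PERK, had signals of 0.42 and 0.02 on Met-low and 0.36 and 0.07 on Met-high arrays, a log2 ratio of -0.01 with an interval from -0.55 to 0.53 (adjusted p = 0.986, limma). *Eif2ak4*, which encodes the amino acid sensor GCN2, had signals of 1.01 and 0.55 on Met-low and 0.81 and 0.63 on Met-high arrays, a log2 ratio of -0.06 (SE 0.21, adjusted p = 0.874, limma). For both kinases the Met-high arrays lay between the Met-low arrays. *Ern1*, which encodes IRE1, had signals of -0.73 and -1.41 on Met-low and -0.99 and -1.61 on Met-high arrays. Its arrays interleaved, and its interval, from -1.05 to 0.57, was the widest of the 41 (log2 ratio -0.24, adjusted p = 0.672, limma).

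*Xbp1*, the target of the IRE1 nuclease, had signals of 4.38 and 4.42 on Met-low and 4.43 and 4.41 on Met-high arrays. The 4 arrays lay close together, and the log2 ratio was 0.02 with an interval from -0.36 to 0.40 (adjusted p = 0.948, limma). The probe reports on total message, and splicing of *Xbp1* was not measured. In this group of 5, 4 means were lower and 1 was higher, but without Met-low replicate 1 or without Met-high replicate 2 the count turned to 1 lower and 4 higher, *Atf6* being the 1 that stayed lower.

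The chaperones and co-chaperones of the endoplasmic reticulum had a median log2 ratio of 0.02, with 5 of 9 means higher and 4 lower. None passed in limma, and 1 was lower at an unadjusted p under 0.05. *Hspa5*, which encodes BiP, the main chaperone of the compartment and the usual readout of ATF6 activity, had signals of 6.10 and 5.82 on Met-low and 6.04 and 5.91 on Met-high arrays. The Met-high arrays lay between the Met-low arrays. The log2 ratio was 0.02 with an interval from -0.43 to 0.47, well within 2-fold (SE 0.18, adjusted p = 0.963, limma). Under quantile normalization and the scaling on detected probes the median of the group was -0.07 and -0.13, with 3 of 9 means higher.

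*Dnajc3* (NM_008929), the co-chaperone p58IPK, which also inhibits PERK, had the lowest value of the group. Its signals were 2.04 and 1.65 on Met-low and 1.11 and 0.34 on Met-high arrays, without overlap but with a wide spread in Met-high cells. The mean was 2.17-fold lower in Met-high cells. The log2 ratio was -1.12, with an interval from -1.89 to -0.35 (SE 0.30, adjusted p = 0.103, limma). It passed without Met-high replicate 1, at a log2 ratio of -1.50 (adjusted p = 0.0147). With Met-high replicate 2 left out instead, the ratio was -0.73 (adjusted p = 0.200). *Dnajb9*, the co-chaperone ERdj4 and a target of spliced XBP1, had signals of 0.04 and 0.39 on Met-low and -0.54 and -0.05 on Met-high arrays. The arrays did not overlap, the log2 ratio was -0.51 (SE 0.24, adjusted p = 0.250, limma), and a second probe gave -0.73.

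On the higher side of this group, *Sdf2l1*, a partner of BiP, had signals of 1.54 and 1.99 on Met-low and 1.72 and 2.40 on Met-high arrays, with overlap (log2 ratio 0.29, adjusted p = 0.559, limma). *Calr*, the calcium-binding lectin calreticulin, had signals of 4.62 and 4.60 on Met-low and 4.72 and 4.98 on Met-high arrays, without overlap (log2 ratio 0.24, adjusted p = 0.422, limma). *Canx*, its membrane-bound relative, was at -0.05, and *Hsp90b1*, the chaperone GRP94, at -0.11. *Manf*, a secreted protein of the response, was at 0.23, or 0.0052 without Met-high replicate 2, and *Creld2*, another, at 0.10, the latter without overlap. The 7 genes with the first promoter element shown above, 6 of this group and *Pdia6*, had log2 ratios from -1.12 to 0.24 with a median of -0.05, 4 lower and 3 higher, and 0 passed. The 6 measured genes with the C/EBP-ATF core had a median of -0.30, 5 lower and 1 higher, and 1 passed, *Nupr1*, while the highest of them was *Slc1a4*. The 31 measured genes with a window but without this core had a median of -0.05. Of the 5 lower genes, *Nupr1*, *Trib3* and *Chac1* came from the group with 8 of 8 lower means. *Herpud1* counted as lower at -0.00177. Genes with that core thus held both ends of the range of the 41.

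The disulfide isomerases, which form and reshuffle disulfide bonds during folding, did not pass, and 0 of 3 did so at an unadjusted p under 0.05 in limma. *Pdia6* had signals of 6.76 and 6.32 on Met-low and 6.30 and 5.99 on Met-high arrays, narrowly without overlap, with a log2 ratio of -0.39 (SE 0.22, adjusted p = 0.320, limma). A second probe of it gave -0.68. *Pdia3*, which works with calreticulin and calnexin, had signals of 3.02 and 2.68 on Met-low and 2.67 and 2.68 on Met-high arrays, and *Pdia4* had 2.09 and 1.67 on Met-low and 2.21 and 1.70 on Met-high arrays. For these the populations overlapped, with log2 ratios of -0.17 and 0.08.

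Genes of the degradation pathway, which moves misfolded proteins back to the cytosol for the proteasome, gave a similar picture, with 0 of 3 passing and 0 of 3 at an unadjusted p under 0.05 in limma. *Sel1l*, a scaffold of the membrane ubiquitin ligase complex, had signals of 0.05 and -0.42 on Met-low and -0.42 and -0.75 on Met-high arrays, with almost no gap between the populations (log2 ratio -0.40, SE 0.23, adjusted p = 0.327, limma). *Herpud1*, the gene with the second promoter element, had signals of 3.03 and 2.80 on Met-low and 2.85 and 2.97 on Met-high arrays. The Met-high arrays fell between the Met-low arrays, and the log2 ratio was -0.00177 (adjusted p = 0.996, limma). *Edem1*, a lectin that extracts misfolded glycoproteins, had signals of 1.60 and 1.24 on Met-low and 1.61 and 1.32 on Met-high arrays, with overlap and a log2 ratio of 0.05.

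For 8 of the 41 genes a second probe was measured, and for all 8 it had the same sign as the first. The intervals of the 9 genes that reached beyond 2-fold were those of *Atf4*, *Nupr1*, *Trib3*, *Slc1a4*, *Ern1*, *Atf6*, *Dnajb9*, *Dnajc3* and *Sdf2l1*. For the 7 of these that did not pass, a 2-fold difference in 1 direction lay inside the interval.

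Other genes of the same pathways, outside the 42, were listed separately. Of 26 further genes of the integrated stress response 22 were kept, and 17 of these were lower in mean in Met-high cells and 5 were higher, with a median of -0.17. Without Met-high replicate 2 the split was 14 lower and 8 higher. Of the 22 genes, 3 passed as lower and 1 as higher, against 3.80% and 1.93% of all genes. The list was chosen with earlier results of these data known, so these counts only describe it. No test of the list as a whole was made. *Atf5*, a factor related to ATF4 and translated by the same mechanism, had signals of 6.18 and 5.91 on Met-low and 4.65 and 4.83 on Met-high arrays. The populations were far apart, and the gene was 2.47-fold lower in Met-high cells (log2 ratio -1.30, SE 0.18, adjusted p = 0.024, limma).

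*Ddit4*, also called REDD1, a stress-induced inhibitor of mTOR complex 1, had signals of 3.33 and 3.12 on Met-low and 1.63 and 1.72 on Met-high arrays. It was 2.93-fold lower in Met-high cells, without overlap (log2 ratio -1.55, SE 0.17, adjusted p = 0.014, limma). *Eif2ak2*, which encodes the kinase PKR that phosphorylates eIF2 in response to double-stranded RNA, had signals of -1.80 and -1.83 on Met-low and -2.76 and -3.01 on Met-high arrays. Its arrays did not overlap and its log2 ratio was -1.07 (SE 0.17, adjusted p = 0.031, limma).

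In the opposite direction, *Shmt1*, the cytosolic counterpart of *Shmt2*, had signals of -1.09 and -1.02 on Met-low and -0.08 and 0.06 on Met-high arrays. It was 2.07-fold higher in Met-high cells, without overlap (log2 ratio 1.05, SE 0.16, adjusted p = 0.029, limma). *Atf5* and *Ddit4* passed with any one array left out. *Eif2ak2* did not pass with normexp background correction, nor without Met-low replicate 1, Met-low replicate 2 or Met-high replicate 2 (adjusted p = 0.0738, 0.0603 and 0.0749), and *Shmt1* did not pass without the same arrays (0.0791, 0.0571 and 0.0692). Without the filter on dim probes none of the 4 passed.

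The lowest ratio of that list was for *Slc7a11*, the cystine importer xCT, with signals of -2.22 and -1.67 on Met-low and -3.36 and -4.47 on Met-high arrays. The populations did not overlap, and the log2 ratio of -1.98 did not pass (SE 0.41, adjusted p = 0.0587, limma). It passed without Met-low replicate 1, Met-high replicate 1 or Met-high replicate 2, at an adjusted p of 0.0198, 0.00179 and 0.0282. Without Met-high replicate 2 the log2 ratios of *Aldh1l2* and *Gdf15* were -1.14 and -2.05, against -0.96 and -0.92 with all arrays. The signals of *Gdf15* were -3.28 and -3.85 on Met-low and -5.61 and -3.35 on Met-high arrays, with overlap between the populations. It was well above background on 1 of the 2 Met-high arrays, and leaving out replicate 2 kept only the dimmer one. Without Met-high replicate 1 instead, its log2 ratio was 0.22.

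The cytosolic aminoacyl-tRNA synthetases, which load tRNAs with amino acids and include many ATF4 targets, were 20 of 20 measured. The mean was higher for 15 and lower for 5, with a median of 0.12, against 59.5% of all genes higher in mean. None passed in limma, with 2 higher at an unadjusted p under 0.05. Those 2, *Vars* and *Mars*, passed with a mean-variance trend in limma (adjusted p = 0.0426 each), and *Farsb* joined them under the replicate block (0.0489). The highest, *Vars*, the valine enzyme, had signals of 1.78 and 1.98 on Met-low and 2.54 and 2.86 on Met-high arrays (log2 ratio 0.82, adjusted p = 0.0739, limma), and the lowest, *Dars*, the aspartate enzyme, had a log2 ratio of -0.29 with overlap. The median of this list turned to -0.04 under quantile normalization and to -0.03 with the scaling on detected probes, and without Met-high replicate 2 the split was 13 higher and 7 lower. With all arrays and the 75th percentile over all probes, the median of the list lay 0.02 above the median of all genes.

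Of 39 further genes of folding, translocation and degradation in the endoplasmic reticulum 37 were kept, 20 higher and 17 lower in mean, with a median of 0.01. None passed in limma, and 3 were higher and 1 lower at an unadjusted p under 0.05. The highest was *Ero1l* (*Ero1a*), the oxidase that recharges disulfide isomerases, with signals of 0.24 and 0.60 on Met-low and 1.05 and 1.15 on Met-high arrays (log2 ratio 0.68, adjusted p = 0.110, limma). The lowest was *Creb3l1*, a membrane-bound factor related to ATF6, with signals of -2.26 and -2.01 on Met-low and -3.01 and -2.77 on Met-high arrays (log2 ratio -0.75, adjusted p = 0.0829, limma). Both extremes were without overlap between the populations. The median was -0.07 under quantile normalization and -0.13 with the scaling on detected probes.

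**Figure D4:**
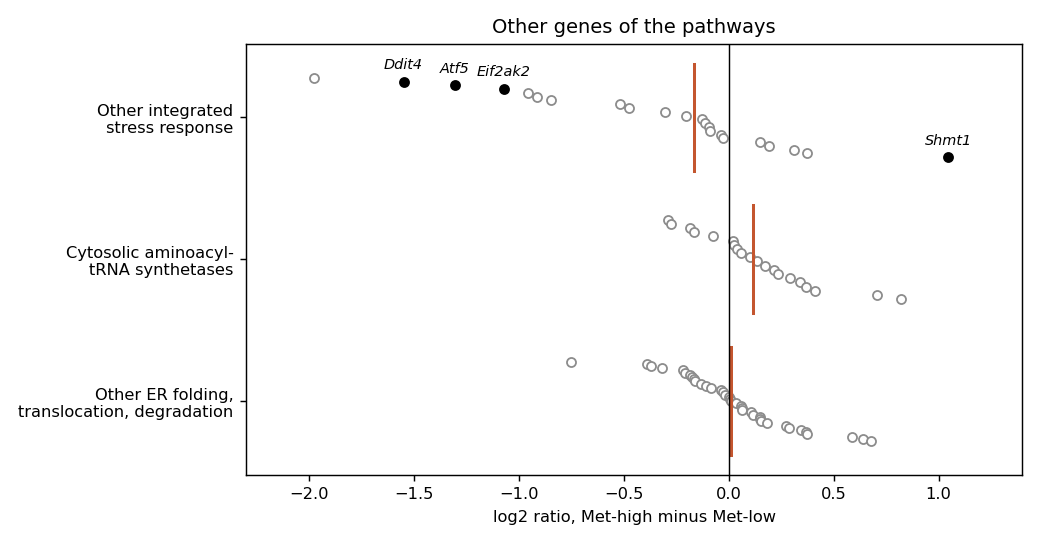
Log2 ratio of Met-high minus Met-low for 3 lists of other genes of the pathways, each point a gene, ordered by ratio within a list. Filled named points passed at an adjusted p under 0.05, and red bars are the medians, -0.17, 0.12 and 0.01 from top to bottom. The 4 genes that passed are all in the list of the integrated stress response, *Ddit4*, *Atf5* and *Eif2ak2* on the lower side and *Shmt1* on the higher side.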

How the data were processed

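For each array the authors deposited scanner output of Agilent Feature Extraction (11.0.1.1 in the file headers, 10.7.3.1 in the submitters' processing notes), which holds the background-corrected intensity of 43020 spots. The authors also deposited processed log2 values, which matched the log2 intensity relative to each array's 75th percentile, centred per probe (93.3% to 99.8% of probes within 0.01; column medians -0.12 to 0.15), and served as an alternative. Here the intensity was taken to log2 minus the 75th percentile of its array. Outlier spots (207 to 232 per array) were left out, spots of a probe averaged, and 27421 of 39429 probes named by accession through RefSeq (GRCm38.p6). The brightest probe stood for a gene, and a gene was kept if well above background on each array of either population. Populations were compared with lmFit and eBayes (limma 3.58.1, R 4.3.3), adjusted by Benjamini-Hochberg. P-values rest on the spread between 2 samples per population, which eBayes draws toward a value estimated from all genes. The fit was tested on simulated data. The members and the other lists were chosen with earlier results of these data known. Per-array values are given for genes that passed and for *Atf4*, *Ddit3*, *Xbp1*, *Hspa5* and the sensors. They are also given for up to 2 genes with the largest ratio in each direction per role. *Trib3* and *Psat1* were added after their values were seen. Of the other lists, they are given for genes that passed, for the extremes except *Dars*, and for *Gdf15*, which was neither. Alternatives were normexp background (offset 50), quantile scaling, a percentile over detected probes, other filters and probe rules, a mean-variance trend, a replicate block and leaving out each array, where a lone array was assumed to vary like the others. Protein sequences were not used here.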

Additional observations from a re-analysis of the deposited data

How the results depend on the processing

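*Nupr1* and *Atf6* were the 2 genes called lower. The count was 1 under quantile normalization, 0 without the filter on dim probes (3 at an unadjusted p under 0.05) and 1 to 2 with an array left out; genes called higher stayed at 0 to 0. Genes over 2-fold numbered 0 to 1 higher and 1 to 2 lower with an array left out, and the median log2 ratio ran from -0.18 to 0.07. Of all genes, 231 were called higher and 454 lower (66.3% lower), against 146 and 613 with the percentile over detected probes (80.8% lower), 0 and 7 without the filter (1195 and 1463 at an unadjusted p under 0.05), 393 higher with a mean-variance trend, and 155 to 264 and 437 to 605 with an array left out. The unfiltered fit spans more and dimmer probes, and the causes of these changes were not tested.

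The labels number the replicates without saying that a number marks a shared preparation, and the deviations of same-numbered arrays correlated at r = 0.54, a single correlation over genes. With the replicate block, 1966 genes were called higher and 1578 lower, and 2 of the 41 genes higher (*Shmt2*, *Slc1a4*) and 7 lower (*Atf4*, *Atf6*, *Cebpg*, *Dnajb9*, *Dnajc3*, *Nupr1*, *Trib3*).

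Of 574 log2 ratios of the 41 genes under alternatives, 520 kept direction and call, 8 gained and 7 lost the call, and 39 changed sign. Under quantile normalization and the percentile over detected probes, in this order, the ratio was -0.14 and -0.090 for *Psph*, -0.055 and -0.016 for *Slc38a2*, -0.15 and -0.12 for *Xbp1*, -0.070 and -0.13 for *Hspa5*, -0.039 and -0.046 for *Creld2*, -0.037 and -0.069 for *Pdia4*, and -0.038 and -0.096 for *Edem1*. With normexp it was 0.062 for *Eif2ak3* and -0.012 for *Xbp1*. With an array left out it ran from -0.018 to 0.13 for *Psph*, -0.40 to 0.19 for *Slc7a1*, -0.020 to 0.28 for *Slc38a2*, -0.20 to 0.19 for *Eif2ak3*, -0.29 to 0.17 for *Eif2ak4*, -0.58 to 0.10 for *Ern1*, -0.12 to 0.15 for *Hspa5*, -0.35 to 0.14 for *Hsp90b1*, -0.045 to 0.63 for *Sdf2l1*, -0.19 to 0.095 for *Canx*, -0.18 to 0.33 for *Pdia4*, -0.11 to 0.11 for *Herpud1*, and -0.13 to 0.23 for *Edem1*. All 41 genes were well above background on every array, which does not show that background left their ratios unchanged. Normexp moved ratios in both directions, from -0.87 to -0.74 for *Atf6* and from -0.52 to -0.55 for *Atf4*. The 2 arrays per population limit the precision.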
